A study of Mus musculus with 11 samples.

Results

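The genes described here mark the B lineage. Ms4a1, Cd79a, Cd79b, Pax5, Cd22 and Blk are genes of B cells, and Jchain, Mzb1 and Tnfrsf17 are genes of antibody-secreting plasma cells. These 9 genes were chosen by symbol, and 9 of 9 were found by their Ensembl identifiers among the 21899 genes of the deposited table. The libraries came from wild-type male BALB/c mice aged 6 to 8 weeks, with 3 libraries labelled PBS, 4 labelled OVA/LPS/Vehicle and 4 labelled OVA/LPS/GGsTop. PBS mice were not sensitized and received sterile PBS alone. OVA/LPS/Vehicle mice were sensitized to ovalbumin (OVA) with alum on days 0 and 7, challenged through the nose with OVA on days 14 to 17, and given lipopolysaccharide (LPS), also through the nose, on days 19 and 21. OVA/LPS/GGsTop mice had the same OVA and LPS and were given GGsTop, an inhibitor of γ-glutamyl transpeptidase, into the trachea at 0.5 mg/kg on days 21 to 23, when the other exacerbated group was given vehicle. Tissue was taken on day 25. The labels call the tissue trachea, whereas the methods of the study describe dissected airway with the trachea left out. The OVA/LPS/Vehicle libraries are numbered 12, 34, 56 and 78, and whether each holds 1 mouse or a pool was not stated in the sources used here.

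B cells recognise antigen through surface immunoglobulin, which signals into the cell through the CD79A and CD79B chains. Activated B cells can enter germinal centres, where they divide and are selected for antigen binding, and can then become plasma cells, which give up the Pax5 program and turn to secretion. In mucosal tissue such as the airway, plasma cells release polymeric IgA joined by the J chain, which the polymeric immunoglobulin receptor of the epithelium, encoded by Pigr, carries to the lumen.

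The promoter table of RefSeq (GRCm38.p6) held 5 of the 9 genes, namely Pax5, Jchain, Cd79a, Cd22 and Tnfrsf17. Windows of 300 bases around each start were searched on both strands for 3 motifs of factors known from B cells. The octamer ATGCAAAT, bound by POU2F factors, was in 0 of the 5 windows and in 1.74% of all 32851 windows. GAGGAAGT, a form bound by SPI1, was in 0 of the 5 and in 3.20% of all. The EBF1 core TCCCNNGGG was in the Cd22 window alone of the 5, and in 6.56% of all windows. No match says only that these letters are not in these windows. The 80 bases before the RefSeq start are printed for Jchain, the gene with the largest difference from PBS, and for Cd22, whose window held the match. Both genes lie on the minus strand, and the sequences are written 5′ to 3′ along the gene, at chr5:88527898-88527977 for Jchain and chr7:30879029-30879108 for Cd22. The Cd22 stretch lies inside the gene model of GENCODE M21 used below (chr7:30865402-30880342), which begins further upstream than the RefSeq start. Capitals mark the EBF1 core, which occurs on both strands in overlapping copies from 49 to 40 bases before the RefSeq start of Cd22.
Jchain: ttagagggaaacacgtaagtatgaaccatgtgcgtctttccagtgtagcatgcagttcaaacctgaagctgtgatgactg
Cd22: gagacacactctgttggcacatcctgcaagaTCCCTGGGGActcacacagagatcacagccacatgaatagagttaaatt

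The values are FPKM, fragments scaled to the exon length of the gene and to library depth, so that levels can be set side by side between genes. The steps between values implied 14513136 to 18632382 fragments per library, and 1 fragment on a gene of 1 kilobase was worth 0.0537 to 0.0689 FPKM. Groups were compared by limma on log2(FPKM + 1) across the 14004 genes whose mean reached 0.5 FPKM, a filter that 9 of the 9 genes passed, and calls were made at 0.05 on the adjusted p. The log2 differences below are differences in mean log2(FPKM + 1), first group minus second, a scale that understates the change of low genes. Nothing in the labels says that libraries of a group came from separate mice, so the p-values measure the spread between these libraries. In bulk tissue, fewer cells of a type and less RNA per cell cannot be told apart. Scgb1a1, the club cell secretoglobin of the airway epithelium, stood at 26100 to 47900 FPKM, and Sftpc, a surfactant gene of alveolar cells, at 8180 to 12500 FPKM in PBS, 4160 to 7160 in OVA/LPS/Vehicle and 3540 to 9520 in OVA/LPS/GGsTop. Alveolar RNA was thus present in each library, and each OVA/LPS/Vehicle library lay below each PBS library in Sftpc, a log2 difference of -0.78 that missed the threshold (adjusted p = 0.103).

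Several libraries stood apart in genes of lymphoid tissue. Glycam1, a product of high endothelial venules in lymph nodes, was at 18.1 FPKM in PBS 2, 14.5 in OVA/LPS/Vehicle 12 and 21.5 in OVA/LPS/Vehicle 56, against 4.17 or less in the other 8 libraries. The 6 lymph node stroma markers summed to 41.3 to 169 FPKM in PBS, 43.5 to 134 in OVA/LPS/Vehicle and 32.8 to 55.7 in OVA/LPS/GGsTop. Limma called 0 of the 5 tested in each comparison, at an adjusted or an unadjusted p under 0.05. Over all 14004 genes, 5327 were called for vehicle against PBS, 1220 for GGsTop against vehicle and 403 for GGsTop against PBS. At an unadjusted p under 0.05 there were 6944, 4319 and 2873. OVA/LPS/Vehicle 12 also held 13.8 FPKM of Dntt and 8.53 of Rag1, genes of immature lymphocytes, against 0.301 or less and 0.0976 or less in the other 10 libraries. Of the 10 immature thymocyte markers, the summed level reached 103 FPKM in OVA/LPS/Vehicle, against at most 32.7 in PBS and 20.6 in OVA/LPS/GGsTop. The calls of the 9 genes and of the lineage lists are given below with and without the 3 libraries above 10 FPKM of Glycam1, a choice made after the data were seen. OVA/LPS/Vehicle 12 and 56 were also the highest of their group in the B cell genes, so leaving them out lowers its B cell level by choice. The part of lymph node or thymic tissue in the results was not tested.

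**Figure D1:**
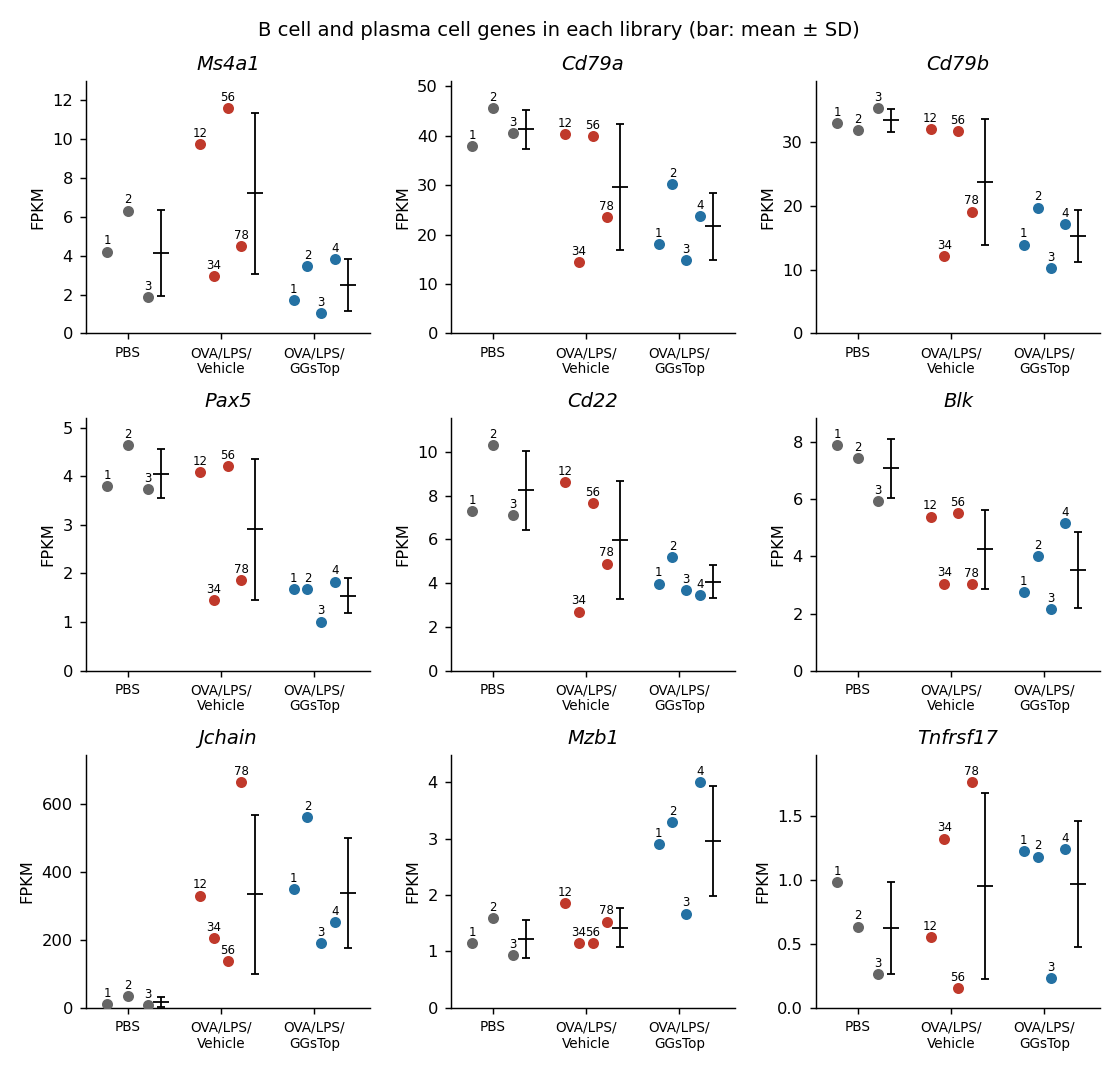
FPKM of each of the 9 genes (vertical axis, linear, from 0) in each library, with 1 point per library labelled by its number and the group mean ± SD as a black bar (n = 3, 4 and 4). Jchain sits between 137 and 665 FPKM in the exacerbated libraries and at 33.2 or less in PBS, whereas OVA/LPS/Vehicle 12 and 56 lie with the PBS libraries for Cd79a, Cd79b, Pax5 and Cd22.

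The exacerbation was compared first, OVA/LPS/Vehicle with PBS. Jchain rose 19.7-fold in mean FPKM, while limma called 0 of the 6 B cell genes, with 1 of 6 at an unadjusted p under 0.05. Over all genes tested, 38.0% were called, and 1 of the 9 genes was. At an unadjusted p under 0.05 there were 6944 of the 14004 genes. Between these groups 44.1% of all genes did not overlap in range, and 2 of the 9 did not, Jchain above PBS and Blk below it. The median log2 difference of the 6 B cell genes was -0.53, with 5 of 6 below 0, beside -0.01 over all genes tested.

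Jchain, which joins the chains of polymeric IgA and IgM, lies at chr5:88519809-88527891 (this and the gene positions below are those of GENCODE M21 on GRCm38, not the mm39 of the authors' mapping). Its level was 10.5, 33.2 and 7.16 FPKM in PBS 1 to 3, and 331, 206, 137 and 665 FPKM in OVA/LPS/Vehicle 12, 34, 56 and 78. The lowest exacerbated library was above the highest PBS library, and the mean went from 17 ± 14.2 (SD, n = 3) to 335 ± 234 FPKM (SD, n = 4). The log2 difference was 4.26 (SE 0.58, adjusted p = 0.00337). The call was kept in 20 of 20 alternatives, between 3.67 with a correction for GC content and 5.26 without the 3 libraries high in Glycam1, and was 4.86 without PBS 2 alone. PBS 2, the highest PBS library in Jchain, was also the highest of its group in Pigr, at 93.9 FPKM against 16.3 and 12.5, and in the secretory epithelial genes Scgb3a1 and Bpifa1, at 1350 against 160 and 35.7 FPKM and at 3520 against 373 and 42.0 FPKM. Their part in the Jchain level was not tested.

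The antigen receptor chains are encoded by Cd79a, at chr7:24897381-24902197, and Cd79b, at chr11:106311341-106314762. Cd79a was at 37.9, 45.6 and 40.5 FPKM in PBS and at 40.3, 14.5, 40.0 and 23.5 FPKM in OVA/LPS/Vehicle 12, 34, 56 and 78. Cd79b split the OVA/LPS/Vehicle libraries alike, with 33.0, 31.8 and 35.3 FPKM in PBS and 32.0, 12.1, 31.7 and 19.1 FPKM in OVA/LPS/Vehicle. In both genes, OVA/LPS/Vehicle 12 and 56 lay at the level of PBS and the other two well below it. The log2 difference was -0.58 for Cd79a (SE 0.33, adjusted p = 0.177) and -0.57 for Cd79b (SE 0.30, adjusted p = 0.149), neither of which passed the test.

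Pax5, the transcription factor that holds B cell identity (chr4:44524757-44710487), was at 3.80, 4.64 and 3.73 FPKM in PBS. In OVA/LPS/Vehicle 12, 34, 56 and 78 it was at 4.09, 1.45, 4.21 and 1.87 FPKM, again split by library. Cd22, an inhibitory co-receptor (chr7:30865402-30880342), was at 7.29, 10.3 and 7.11 FPKM in PBS and at 8.62, 2.70, 7.65 and 4.89 FPKM in OVA/LPS/Vehicle. Neither difference passed, with log2 differences of -0.45 for Pax5 (SE 0.25, adjusted p = 0.176) and -0.48 for Cd22 (SE 0.28, adjusted p = 0.189).

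Blk, a Src-family kinase of B cells (chr14:63372836-63417037), was the one B cell gene whose groups did not overlap. It was at 7.90, 7.44 and 5.93 FPKM in PBS and at 5.40, 3.05, 5.51 and 3.02 FPKM in OVA/LPS/Vehicle, a log2 difference of -0.66 (SE 0.25, adjusted p = 0.0556). It missed the threshold in the full fit but was called in 8 of 20 alternatives, among them those without OVA/LPS/Vehicle 12 (-0.77, adjusted p = 0.0460) and without OVA/LPS/Vehicle 56 (-0.77, adjusted p = 0.0496).

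Ms4a1, which encodes the surface protein CD20 (chr19:11249675-11266241), split the OVA/LPS/Vehicle libraries as the other 5 did, but its level against PBS differed from theirs. It was at 4.21, 6.32 and 1.89 FPKM in PBS and at 9.76, 2.97, 11.6 and 4.49 FPKM in OVA/LPS/Vehicle, so that OVA/LPS/Vehicle 12 and 56 were above each PBS library. Its log2 difference was 0.62 (SE 0.45, adjusted p = 0.286), and 0.13 with the GC correction.

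Without PBS 2 and OVA/LPS/Vehicle 12 and 56, the number of the 9 genes called against PBS went from 1 to 6, while 4189 of 14004 genes were called in place of 5327. The log2 differences were then -1.05 for Cd79a (adjusted p = 0.0415), -1.12 for Cd79b (adjusted p = 0.0270), -0.85 for Pax5 (adjusted p = 0.0178), -0.81 for Cd22 (adjusted p = 0.0342) and -0.96 for Blk (adjusted p = 0.0400). Ms4a1 went from 0.62 to 0.27 (adjusted p = 0.650). OVA/LPS/Vehicle 12 and 56 were the highest of their group in the 6 B cell genes summed, at 100 and 101 FPKM against 36.7 and 56.8. Leaving them out lowers the group by choice, so the calls of this fit are not independent of that choice. This fit has 2 PBS and 2 OVA/LPS/Vehicle libraries, and with the GC correction added 2 of the 9 genes were called, Pax5 at -0.83 (adjusted p = 0.0262) and Jchain, beside 1820 of 13987 genes.

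Mzb1, a chaperone of the endoplasmic reticulum that assists antibody assembly, and Tnfrsf17, which encodes the survival receptor BCMA, were low. Mzb1 was at 1.15, 1.59 and 0.928 FPKM in PBS and at 1.86, 1.15, 1.14 and 1.53 FPKM in OVA/LPS/Vehicle, ranges that overlap. Tnfrsf17 (chr16:11313812-11320074) was at 0.978, 0.633 and 0.263 FPKM in PBS and at 0.554, 1.32, 0.154 and 1.76 FPKM in OVA/LPS/Vehicle. These values rest on 21 to 35 fragments for Mzb1 and on 2 to 24 for Tnfrsf17. The log2 differences of 0.12 (adjusted p = 0.651) and 0.20 (adjusted p = 0.615) had intervals, taken as 2 SE either side, of -0.28 to 0.53 and -0.42 to 0.82. The gene model of Mzb1 is overlapped on the same strand by that of SPATA24, which is listed at 0 in each library, and fragments shared by both may have been left uncounted.

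**Figure D2:**
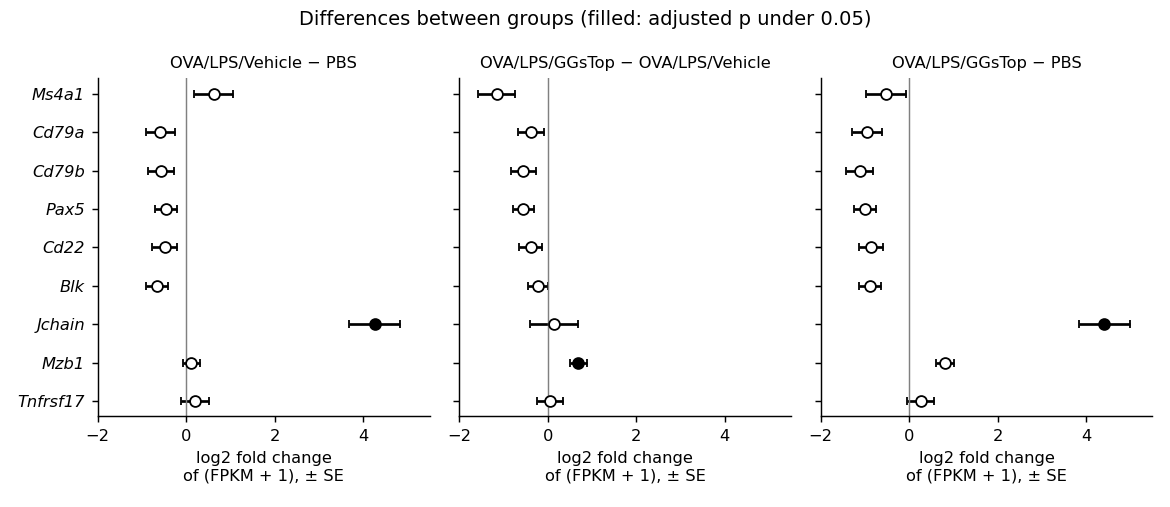
Log2 difference of FPKM + 1 (horizontal axis) of the 9 genes in the 3 comparisons, with bars of 1 SE and filled points for an adjusted p under 0.05. Jchain stands at 4.26 and 4.41 against PBS, and the 6 B cell genes lie between -1.15 and 0.62 with no filled point.

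The treatment was compared next, OVA/LPS/GGsTop with OVA/LPS/Vehicle. Jchain averaged 339 against 335 FPKM, Mzb1 was higher, and the 6 B cell genes had negative differences without a call. Of all genes tested, 8.71% were called and 29.7% did not overlap in range. Among the 9 genes 1 was called and 0 were without overlap. The median log2 difference of the 6 B cell genes was -0.46, with 6 of 6 below 0, beside 0.03 over all genes.

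Mzb1 was at 2.90, 3.29, 1.67 and 4.0 FPKM in OVA/LPS/GGsTop 1 to 4. The lowest of these lay within the OVA/LPS/Vehicle range, below the 1.86 FPKM of OVA/LPS/Vehicle 12, and the other 3 lay above it. The mean was 2.96 ± 0.978 (SD, n = 4) against 1.42 ± 0.346 FPKM (SD, n = 4), a log2 difference of 0.69 (SE 0.19, adjusted p = 0.0458). The call was close to the threshold and held in 8 of 21 alternatives. It was lost on leaving out any one of the 8 libraries except OVA/LPS/GGsTop 3, with adjusted p of 0.0508, 0.112, 0.131 and 0.0883 without OVA/LPS/Vehicle 12, 34, 56 and 78, and of 0.115, 0.10 and 0.0774 without OVA/LPS/GGsTop 1, 2 and 4. With the GC correction it was 0.52 (adjusted p = 0.138), and with voom on the recovered fragments 1.01 (adjusted p = 0.0745).

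Jchain was at 349, 563, 191 and 253 FPKM in OVA/LPS/GGsTop, within the range of OVA/LPS/Vehicle. The means were 339 ± 163 and 335 ± 234 FPKM (SD, n = 4 each), and the log2 difference of 0.15 (SE 0.54, adjusted p = 0.876) had an interval of -0.93 to 1.23, again 2 SE either side. Its sign turned without OVA/LPS/Vehicle 56 (-0.19) or OVA/LPS/GGsTop 2 (-0.13). Tnfrsf17 was at 1.22, 1.18, 0.233 and 1.24 FPKM, with 3 fragments in OVA/LPS/GGsTop 3 and 14 or 15 in the others, and a log2 difference of 0.06 (adjusted p = 0.917).

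Among the B cell genes Ms4a1 differed most, at 1.72, 3.45, 1.06 and 3.84 FPKM in OVA/LPS/GGsTop, a log2 difference of -1.15 (SE 0.42, adjusted p = 0.0943). Of these, OVA/LPS/GGsTop 2 and 4 lay within the OVA/LPS/Vehicle range, and OVA/LPS/GGsTop 1 and 3 below it. Cd79a was at 18.0, 30.2, 14.8 and 23.7 FPKM and Cd79b at 13.9, 19.7, 10.2 and 17.1 FPKM, each below OVA/LPS/Vehicle 12 and 56 and overlapping with 34 and 78. Pax5 was at 1.67, 1.67, 1.01 and 1.83 FPKM, Cd22 at 3.98, 5.17, 3.67 and 3.46 FPKM, and Blk at 2.76, 4.01, 2.16 and 5.16 FPKM. The log2 differences of these 5 genes ran from -0.55 to -0.22, with adjusted p from 0.141 to 0.533. Without PBS 2 and OVA/LPS/Vehicle 12 and 56, those of Cd79a, Cd22 and Blk turned to 0.17, 0.11 and 0.12, and those of Cd79b, Pax5 and Ms4a1 were -0.04, -0.07 and -0.49. In that fit limma called 0 of the 9 genes and 0 of 14004 genes, with 1 of the 9 and 2830 of all genes at an unadjusted p under 0.05. OVA/LPS/Vehicle 12 and 56 were the highest of their group in these B cell genes, so leaving them out lowers the vehicle level by choice.

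OVA/LPS/GGsTop was then set against PBS, a comparison that shares its libraries with both others. Jchain averaged 339 against 17 FPKM, and 5 of the 6 B cell genes lay below PBS in each library without a call. In this comparison 2.88% of all genes were called and 14.8% did not overlap in range. Of the 9 genes, 1 was called and 7 did not overlap, with Jchain and Mzb1 above PBS and Cd79a, Cd79b, Pax5, Cd22 and Blk below it. At an unadjusted p under 0.05 there were 7 of the 9 genes and 2873 of the 14004. The median log2 difference of the 6 B cell genes was -0.91, beside 0.01 over all genes tested.

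Jchain had a log2 difference of 4.41 (SE 0.58, adjusted p = 0.00683) and was called in 22 of 22 alternatives, between 3.98 and 5.01. Pax5, at 1.01 to 1.83 FPKM against 3.73 to 4.64 in PBS, had -1.0 (SE 0.25, adjusted p = 0.0581). Cd79b had -1.12 (SE 0.30, adjusted p = 0.0695), and Blk -0.88 (SE 0.25, adjusted p = 0.0779). Cd79a and Cd22 had -0.95 and -0.86 (adjusted p = 0.141 and 0.123). Mzb1 lay above PBS in 4 of 4 libraries, with 0.81 (SE 0.20, adjusted p = 0.0556), and passed without PBS 2 (0.93, adjusted p = 0.0274) or without OVA/LPS/GGsTop 3 (0.99, adjusted p = 0.00961). Ms4a1 at -0.53 (adjusted p = 0.520) and Tnfrsf17 at 0.26 (adjusted p = 0.652) overlapped with PBS.

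PBS and OVA/LPS/GGsTop share the replicate numbers 1 to 3. The labels do not say what the numbers stand for, and OVA/LPS/GGsTop 4 has no PBS library of its number. The blocked difference thus rests on the libraries numbered 1 to 3 of each group. With the number as a block, 3 of the 9 genes were called, Jchain at 4.51 (adjusted p = 0.000603), Pax5 at -1.05 (adjusted p = 0.0459) and Blk at -1.04 (adjusted p = 0.0498), while 95 of all genes were called in place of 403. With the block and the GC correction together, 8 of the 9 were called and Tnfrsf17 was not, beside 361 of 13987 genes. Without PBS 2 and OVA/LPS/Vehicle 12 and 56, 3 of the 9 were called, Jchain at 5.01, Cd79b at -1.15 (adjusted p = 0.0401) and Pax5 at -0.92 (adjusted p = 0.0270), beside 759 of 14004 genes.

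Across the 11 libraries the B cell genes varied together. The 15 pairs among the 6 genes had Pearson correlations of log2(FPKM + 1) from 0.57 to 0.98 with a median of 0.89, and the 10 pairs without Ms4a1 from 0.78 to 0.98. Jchain was apart from them, at -0.68 to 0.07 with the 6 genes. The 3 pairs of plasma cell genes were at 0.44, 0.45 and 0.59. These libraries share their groups and, as FPKM, their library totals, so the correlations describe the pattern only.

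The summed FPKM of the 6 B cell genes was 94.1, 106 and 94.5 in PBS, 100, 36.7, 101 and 56.8 in OVA/LPS/Vehicle, and 42.0, 64.2, 32.9 and 55.1 in OVA/LPS/GGsTop. Jchain per summed B cell FPKM was 0.0758 to 0.313 in PBS, 1.37 to 11.7 in OVA/LPS/Vehicle and 4.60 to 8.77 in OVA/LPS/GGsTop. The lowest of the exacerbated libraries in this ratio was OVA/LPS/Vehicle 56 and the highest OVA/LPS/Vehicle 78.

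**Figure D3:**
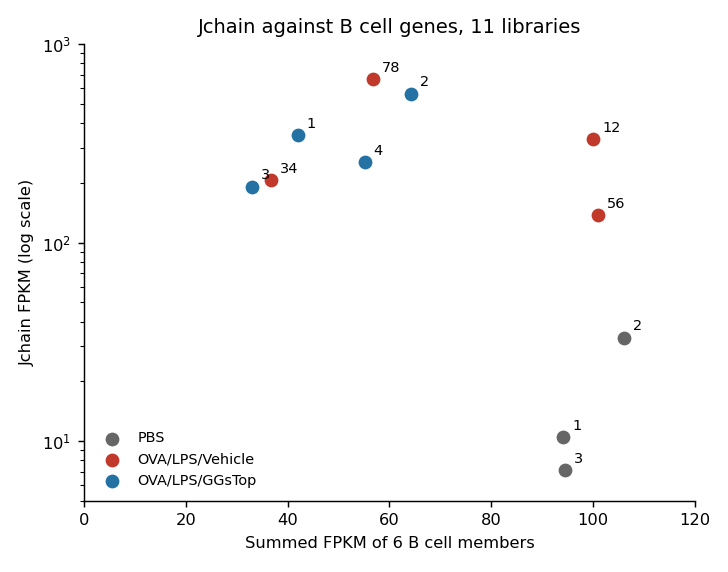
Jchain FPKM (vertical axis, log scale) against the summed FPKM of the 6 B cell genes (horizontal axis, linear) in the 11 libraries, each labelled by its number and coloured by group. PBS lies at 94.1 to 106 summed FPKM with Jchain at 33.2 or less, OVA/LPS/Vehicle 12 and 56 at the same summed level with Jchain at 331 and 137, and the remaining exacerbated libraries at 32.9 to 64.2.

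Among the genes most like the 6 B cell genes over the 11 libraries, by correlation with their mean standardised level, were Spib (0.970), Fcrla (0.957), Fcrl1 (0.953), Fcer2a (0.949), Fcmr (0.948), H2-Ob (0.938), Cd72 (0.927), Ikzf3 (0.924) and Ccr6 (0.916). Those most like the 3 plasma cell genes were Hacd4 (0.969), Alox15 (0.949), Ankmy1 (0.941), Mgl2 (0.936), Grk4 (0.931), Efcab6 (0.928), Il1rl1 (0.925), F5 (0.924), Capn9 (0.924) and Cfap44 (0.918). Alox15, a lipoxygenase, averaged 3.70 FPKM in PBS, 12.1 in OVA/LPS/Vehicle and 17.5 in OVA/LPS/GGsTop.

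Other genes of the lineage were taken from lists. Of 16 genes of B cell receptor signalling and the B cell surface, 1 fell and 2 rose in OVA/LPS/Vehicle against PBS, where 38.0% of all genes were called. Between treatment and vehicle limma called 0, where 8.71% of all genes were called. At an unadjusted p under 0.05 there were 4 of the 16, beside 4319 of 14004 genes. In OVA/LPS/GGsTop against PBS 2 fell, where 2.88% of all genes were called. The genes that fell were Cd37, a tetraspanin (-0.78, adjusted p = 0.0141, and -0.85, adjusted p = 0.0483), and Fcmr, the IgM Fc receptor (-1.56 against PBS under GGsTop, adjusted p = 0.0254). Those that rose in OVA/LPS/Vehicle were Cd24a (1.60, adjusted p = 0.00465), which epithelial cells also express, and the adaptor Blnk (0.59, adjusted p = 0.0376). The list's median log2 differences were -0.34, -0.39 and -0.55 in the order of the comparisons above. With the GC correction Cd37 (-0.45, adjusted p = 0.105) and Blnk (0.39, adjusted p = 0.120) were not called in OVA/LPS/Vehicle. With the replicate block Cd37 missed in OVA/LPS/GGsTop (-0.84, adjusted p = 0.0628), where 4 of the 16 then fell, beside 95 of 14004 genes called. Without the 3 libraries high in Glycam1, 5 fell and 1 rose in OVA/LPS/Vehicle against PBS, beside 4189 of 14004 genes called. Fcmr was among those that fell (-1.07, adjusted p = 0.0255), while Blnk (0.57, adjusted p = 0.103) was not called. In OVA/LPS/GGsTop against PBS 4 fell and 1 rose in that fit, beside 759 of 14004 genes called. Between treatment and vehicle 0 were called by limma in that fit, with 1 at an unadjusted p under 0.05. Over all 14004 genes, 0 were called and 2830 were at an unadjusted p under 0.05.

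Of the 10 B cell transcription factor genes 9 were tested and 0 were called by limma in any comparison, with 1 of 9 at an unadjusted p under 0.05 in each. Over all 14004 genes, in the order of the comparisons above, 38.0%, 8.71% and 2.88% were called. At an unadjusted p under 0.05 there were 6944, 4319 and 2873. Spib, of the Ets family, was at 8.55 to 12.8 FPKM in PBS, 4.35 to 10.5 in OVA/LPS/Vehicle and 3.52 to 7.78 in OVA/LPS/GGsTop. Ebf1, which acts with Pax5 early in the lineage, was at 1.20 to 3.13, 1.80 to 3.35 and 1.31 to 1.89 FPKM in the same order. Irf8, a factor that myeloid cells also use, was at 9.71 to 12.2, 5.72 to 10.1 and 7.07 to 10.6 FPKM. Without the 3 libraries high in Glycam1, Irf8 was the 1 gene of the list called, lower in OVA/LPS/Vehicle than in PBS (-0.67, adjusted p = 0.0386, from -0.46, adjusted p = 0.0551). Of all 14004 genes, 4189 were called in that fit.

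Of 10 genes of B cell survival and homing, the chemokine receptor gene Ccr7 fell against PBS in both exacerbated groups (-1.20, adjusted p = 0.00397, and -1.43, adjusted p = 0.010), and the other 9 were not called. Over all genes tested, 38.0% and 2.88% were called in these 2 comparisons. Ccr7 was called in both without the 3 libraries high in Glycam1 too (-1.59, adjusted p = 0.00662, and -1.42, adjusted p = 0.00296). Cxcr5, the receptor that guides B cells to follicles, was at 3.15 to 5.42 FPKM in PBS, 1.87 to 5.03 in OVA/LPS/Vehicle and 1.05 to 2.78 in OVA/LPS/GGsTop. Against PBS it missed the threshold in OVA/LPS/GGsTop (-0.91, adjusted p = 0.116) and was called lower with the replicate block (-1.09, adjusted p = 0.0498). Tnfrsf13c, the receptor for the survival factor BAFF, was at 1.49 to 2.79 FPKM in OVA/LPS/GGsTop against 2.35 to 8.88 in OVA/LPS/Vehicle (-1.01, adjusted p = 0.0597), and at -0.39 (adjusted p = 0.337) without the 3 libraries. Ccr7 is also a gene of T cells and dendritic cells.

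Of 8 germinal centre genes, Mybl1 rose and S1pr2 fell in OVA/LPS/Vehicle against PBS, where 38.0% of all genes were called. Mybl1 alone was called between treatment and vehicle, lower in OVA/LPS/GGsTop, where 8.71% of all genes were called. Mybl1, a Myb-family factor, was at 0.238 to 0.455 FPKM in PBS, 4.06, 1.42, 4.15 and 1.26 in OVA/LPS/Vehicle 12, 34, 56 and 78, and 0.600 to 0.855 in OVA/LPS/GGsTop, with log2 differences of 1.34 (adjusted p = 0.00630) and -1.03 (adjusted p = 0.0353). S1pr2, a sphingosine phosphate receptor also found outside B cells, was at 4.29 to 7.82 FPKM in PBS and 2.52 to 3.33 in OVA/LPS/Vehicle (-0.89, adjusted p = 0.00511, and -1.14, adjusted p = 0.0112, without the 3 libraries high in Glycam1). Without those libraries it was also called lower in OVA/LPS/GGsTop against PBS (-0.74, adjusted p = 0.0364, from -0.54, adjusted p = 0.110). Fas, a death receptor of many cell types, was at 9.66 to 16.7 FPKM in PBS, 14.4 to 20.2 in OVA/LPS/Vehicle and 14.7 to 19.7 in OVA/LPS/GGsTop, and was not called. S1pr2 and Fas did not set OVA/LPS/Vehicle 12 and 56 apart from 34 and 78, at 3.33, 2.63, 2.52 and 2.64 and at 14.4, 19.6, 20.2 and 18.7 FPKM in 12, 34, 56 and 78. Rgs13, a regulator of G protein signalling, was at 2.26, 0.0765, 4.25 and 0.434 FPKM in OVA/LPS/Vehicle 12, 34, 56 and 78, and at 0.0401 to 0.583 FPKM in the other groups. It was singled out after its values were seen, and was not called (adjusted p = 0.0714 against PBS). The libraries high in Rgs13, OVA/LPS/Vehicle 12 and 56, are the exacerbated ones above 10 FPKM of Glycam1. PBS 2, at 18.1 FPKM of Glycam1, was at 0.156 FPKM of Rgs13. Mki67, a gene of dividing cells, was at 9.76 and 6.16 FPKM in OVA/LPS/Vehicle 12 and 56 and at 3.40 or less in the other 9 libraries. Without PBS 2 and OVA/LPS/Vehicle 12 and 56, Mybl1 was at 0.80 against PBS (adjusted p = 0.0134) and at -0.47 between treatment and vehicle (adjusted p = 0.141), and with the GC correction neither was called (adjusted p = 0.0921 and 0.204).

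**Figure D4:**
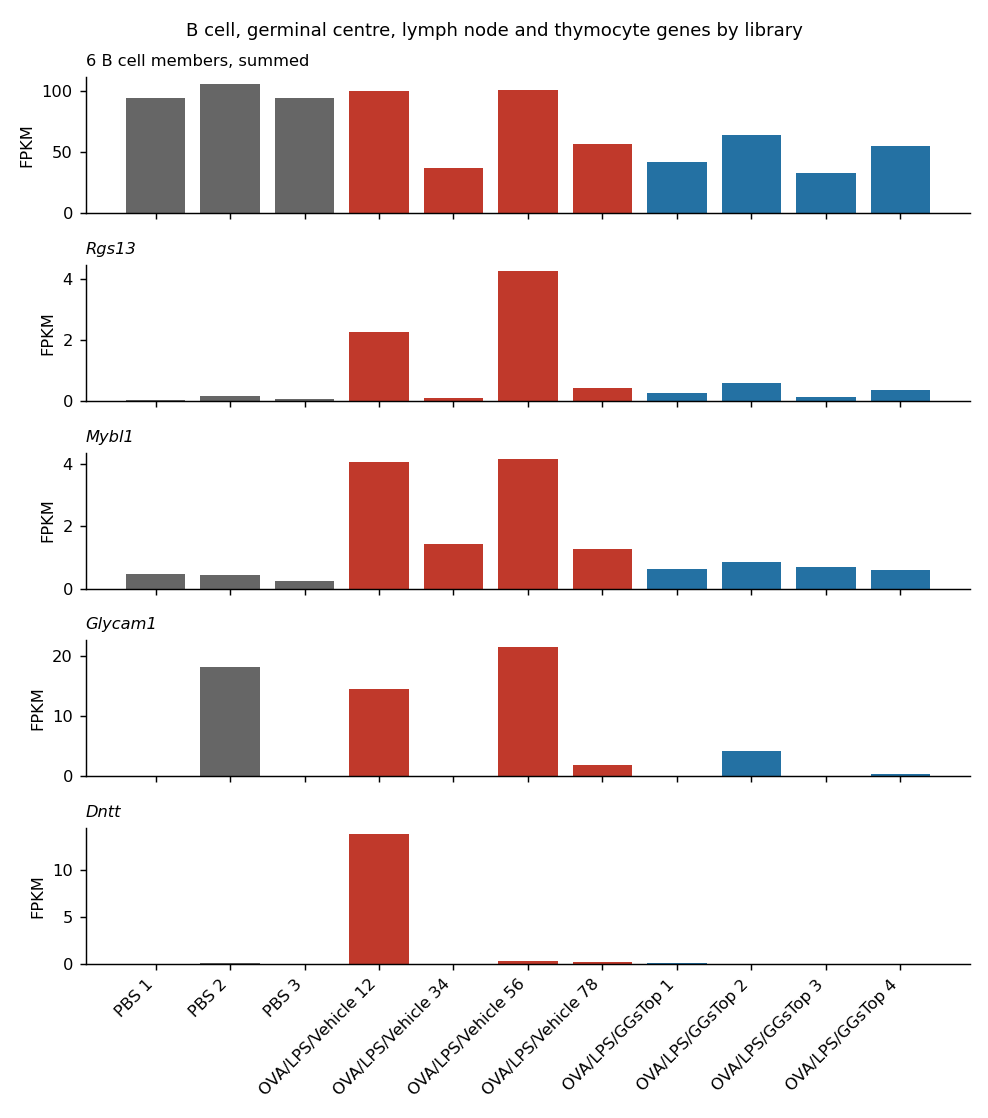
FPKM (vertical axes, linear, from 0) in each of the 11 libraries of the 6 B cell genes summed, 2 germinal centre genes (Rgs13, Mybl1), the lymph node gene Glycam1 and the immature lymphocyte gene Dntt, with bars coloured by group. OVA/LPS/Vehicle 12 and 56 are the highest in Rgs13 and Mybl1, PBS 2 shares their Glycam1 level, and Dntt is high in OVA/LPS/Vehicle 12 alone, at 13.8 FPKM.

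Of 8 early B lineage genes 4 were tested. Vpreb3 rose against PBS in both exacerbated groups, from 12.4 to 19.3 FPKM in PBS to 25.3 to 30.5 in OVA/LPS/Vehicle (0.82, adjusted p = 0.0222) and 25.6 to 62.4 in OVA/LPS/GGsTop (1.24, adjusted p = 0.0258). In OVA/LPS/Vehicle the call was lost without the 3 libraries high in Glycam1 (1.0, adjusted p = 0.0543), and in OVA/LPS/GGsTop with the replicate block (1.01, adjusted p = 0.0710), where it was kept without those libraries (1.38, adjusted p = 0.0367). The other 3 tested were not called. Over all genes tested, 38.0% were called in OVA/LPS/Vehicle against PBS and 2.88% in OVA/LPS/GGsTop against PBS. Cd93, which endothelial cells also express, was at 58.7 to 98.0 FPKM in PBS, 51.8 to 65.6 in OVA/LPS/Vehicle and 37.4 to 71.0 in OVA/LPS/GGsTop, and Vpreb2 was listed at 0 in each library.

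Of 16 plasma cell regulators and secretory genes, 7 rose and 1 fell in OVA/LPS/Vehicle against PBS, beside 38.0% of all genes called, and 4 rose and 0 fell in OVA/LPS/GGsTop against PBS, beside 2.88%. Limma called 0 between treatment and vehicle, with 3 at an unadjusted p under 0.05. Over all genes 8.71% were called there, and 4319 of 14004 were at an unadjusted p under 0.05. Without the 3 libraries high in Glycam1, 4 rose and 0 fell in OVA/LPS/Vehicle, and 3 rose and 0 fell in OVA/LPS/GGsTop. Of 14004 genes, 4189 and 759 were called in these fits. The medians were 0.36, 0.38 and, between treatment and vehicle, 0.06. Derl3, of endoplasmic reticulum protein disposal, was at 0.899 to 1.40 FPKM in PBS, 2.36 to 6.22 in OVA/LPS/Vehicle and 4.36 to 8.61 in OVA/LPS/GGsTop, with no overlap against PBS (1.05, adjusted p = 0.0146, and 1.68, adjusted p = 0.0151). Tent5c, a poly(A) polymerase, rose by 0.81 (adjusted p = 0.00736) and 0.95 (adjusted p = 0.0215). Sec11c, of the signal peptidase, rose by 0.66 (adjusted p = 0.00409) and 0.50 (adjusted p = 0.0448). Edem1, named after its value was seen, was the other gene called in both (0.48, adjusted p = 0.0160, and 0.55, adjusted p = 0.0477). Edem1 missed the threshold with the GC correction (0.30, adjusted p = 0.104, and 0.45, adjusted p = 0.0688) and without the 3 libraries (0.43, adjusted p = 0.0780, and 0.53, adjusted p = 0.0684). With the replicate block Sec11c (adjusted p = 0.140) and Edem1 (adjusted p = 0.0872) missed it in OVA/LPS/GGsTop. Sdc1, which encodes CD138 and is also an epithelial gene, fell in OVA/LPS/Vehicle (-0.40, adjusted p = 0.0426), but not with the GC correction (-0.15, adjusted p = 0.413) or without the 3 libraries (-0.33, adjusted p = 0.128). The regulators Xbp1, Irf4 and Prdm1 were not called, at 63.3 to 71.3, 2.33 to 2.96 and 3.50 to 4.20 FPKM in PBS and 73.0 to 86.4, 2.26 to 3.80 and 2.27 to 3.64 FPKM in OVA/LPS/Vehicle. With the GC correction Xbp1 was called higher (0.36, adjusted p = 0.0273) and Prdm1 lower (-0.52, adjusted p = 0.0428) in OVA/LPS/Vehicle, and Prdm1 lower in OVA/LPS/GGsTop (-0.66, adjusted p = 0.0467), both against PBS. Secretory epithelial cells also express many genes of this list.

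Pigr, whose product carries J chain-bearing immunoglobulin across the epithelium, was at 16.3, 93.9 and 12.5 FPKM in PBS and at 151, 201, 132 and 221 FPKM in OVA/LPS/Vehicle, a log2 difference of 2.62 (SE 0.69, adjusted p = 0.0143). In OVA/LPS/GGsTop it was at 137, 164, 37.6 and 246 FPKM, 2.11 against PBS (SE 0.69, adjusted p = 0.120, and 2.98, adjusted p = 0.0338, without the 3 libraries high in Glycam1), with OVA/LPS/GGsTop 3 below PBS 2. OVA/LPS/GGsTop 3 was also the lowest of its group in Jchain, Mzb1 and Tnfrsf17. The 12 immunoglobulin constant genes of the list matched no row and were not analysed here.

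Markers of other cells were read beside these results. Of 8 airway epithelial markers, 3 rose in OVA/LPS/Vehicle against PBS, Scgb3a1 (3.65, adjusted p = 0.0231), the ciliated cell factor Foxj1 (1.41, adjusted p = 0.00416) and Epcam (0.60, adjusted p = 0.0209), and Foxj1 rose in OVA/LPS/GGsTop too (1.78, adjusted p = 0.00965). Of 8 alveolar markers, 3 fell in OVA/LPS/Vehicle against PBS, Sftpb (-1.81, adjusted p = 0.00509), Abca3 (-1.23, adjusted p = 0.00375) and Ager (-0.94, adjusted p = 0.0315), and none was called in OVA/LPS/GGsTop against PBS (3 at an unadjusted p under 0.05). Over all genes tested, 38.0% were called in OVA/LPS/Vehicle against PBS, so 3 of 8 is near the general share in both lists. In OVA/LPS/GGsTop against PBS that share was 2.88%, with 2873 of 14004 genes at an unadjusted p under 0.05. The alveolar markers summed to 10400 to 16700 FPKM in PBS, 5420 to 8910 in OVA/LPS/Vehicle and 4800 to 12200 in OVA/LPS/GGsTop, and the airway markers to 31300 to 38200, 35800 to 54800 and 42800 to 48300. These marker differences stood beside the Jchain and secretory gene differences in OVA/LPS/Vehicle, and their part in them was not tested.

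The 11 T cell markers with a row summed to 34.6 to 59.2 FPKM in PBS, 27.1 to 108 in OVA/LPS/Vehicle and 22.2 to 37.5 in OVA/LPS/GGsTop. Limma called 0 of 11 in each comparison, with 0, 1 and 0 at an unadjusted p under 0.05. Over all 14004 genes, in the same order, 38.0%, 8.71% and 2.88% were called, and 6944, 4319 and 2873 were at an unadjusted p under 0.05. Their log2 differences between treatment and vehicle were below 0 in 11 of 11, with a median of -0.48, as those of the B cell genes were in 6 of 6. Without the 3 libraries high in Glycam1 the median of the T cell markers was 0.04, with 0 of 11 at an unadjusted p under 0.05 by limma, beside 2830 of 14004 genes. Plasmacytoid dendritic cells can also express Jchain and Spib. Their 8 markers summed to 16.3 to 124 FPKM in PBS, 69.6 to 112 in OVA/LPS/Vehicle and 47.1 to 149 in OVA/LPS/GGsTop. The sums were mostly Cox6a2 and so chiefly follow that gene. Of 7 tested, 1 was called higher against PBS in each exacerbated group, beside 38.0% of all genes called in OVA/LPS/Vehicle and 2.88% in OVA/LPS/GGsTop. It was Smim5 (0.93, adjusted p = 0.0104, and 1.01, adjusted p = 0.0379), which missed the threshold with the replicate block (0.86, adjusted p = 0.158). Against PBS, 6 of the 7 were above 0 in OVA/LPS/Vehicle and 4 in OVA/LPS/GGsTop, with medians of 0.24 and 0.02. Siglech, a defining marker named after its values were seen, was at 1.22, 4.58 and 1.40 FPKM in PBS and at 0.804 to 1.32 in OVA/LPS/Vehicle and 0.879 to 1.38 in OVA/LPS/GGsTop. The part of these cells in the Jchain level was not tested. The GC slope of the libraries, in log2 units per 10 points of GC, was -0.261 to -0.190 in OVA/LPS/Vehicle, 0.0464 to 0.108 in OVA/LPS/GGsTop and 0.0611, 0.0484 and 0.533 in PBS 1 to 3, so that GC content and the OVA/LPS/Vehicle group cannot be told apart. At 38.2% GC, Jchain was the lowest of the 9 genes, and its log2 differences with the GC correction were 3.67 (adjusted p = 0.00748) for OVA/LPS/Vehicle and 4.19 (adjusted p = 0.00534) for OVA/LPS/GGsTop.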

How the data were processed

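RNA-seq of mouse airway was analysed in 11 libraries, in the 3 groups that their labels give. The authors deposited 1 table of FPKM, with 1 column per library. The submitters' processing notes name cutadapt 1.15, HISAT2 2.0.5, HTSeq 0.9.1 and the build mm39, and the annotation and strand setting were not given in the sources used here. Gene models for positions, lengths and GC content were GENCODE M21 on GRCm38, a build other than that of the files, which matched 21846 genes. FPKM times exon length gave whole fragments in each library for 97.8% of genes. The tolerance was 0.01 at low counts and widened in proportion to the count at higher ones, so that at very high counts the check could not fail. With voom on these fragments 5534 genes were called for vehicle against PBS, 1183 for GGsTop against vehicle and 340 for GGsTop against PBS.

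Genes whose mean reached 0.5 FPKM were fitted as log2(FPKM + 1) over the 3 groups by limma-trend (limma 3.58.1, R 4.3.3), and two-sided p-values were adjusted by the Benjamini-Hochberg method over all genes tested. Scripts were checked on simulated data. The 9 genes, the gene lists and the tests were chosen with earlier results of these data known. Named beside the 9 genes were the 3 genes of each lineage list with the smallest p, for some cell types markers by mean FPKM (up to 3), and the 10 genes most like each set, of which 1 is not reported here. Genes named outside this rule, chosen after their values were seen, were Rgs13, Rag1, Blnk, Edem1, Sdc1, Xbp1, Irf4, Prdm1, Mki67, Foxj1, Epcam, Abca3 and Siglech. Alternatives were a pseudocount of 0.1, other filters, scalings, weights and fits, a GC correction by a spline with 5 degrees of freedom, each library left out, and the replicate number as a block. Deviations of PBS and OVA/LPS/GGsTop libraries of the same number correlated at 0.367, 0.427 and 0.428 over 14004 genes. Pairs of differing number ran from -0.693 to 0.457, with PBS 1 and OVA/LPS/GGsTop 3 the highest and PBS 3 and OVA/LPS/GGsTop 1 at 0.223. The numbers come from the labels, which do not say what they stand for.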

Additional observations from a re-analysis of the deposited data

Results flagged for a closer look

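Tnfrsf17 in OVA/LPS/GGsTop 3, at 0.233 FPKM, lay far below the other 3 libraries of its group, which were at 1.18 to 1.24 FPKM. The gap to the nearest of them was 0.955 of the range of the group on the log2(FPKM + 1) scale. Of 18 groups of 4 libraries checked in this way, 1 stood out, and chance alone marks about 1 in 20. The value rests on 3 fragments.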

How the results depend on the processing

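Of 564 values of the 9 genes under the alternatives, 496 kept direction and side of the threshold, 39 gained a call, 13 lost one and 16 turned sign. The calls of Jchain against PBS were kept in each alternative run. In OVA/LPS/GGsTop against OVA/LPS/Vehicle, Tnfrsf17 turned to -0.13 with array weights, -0.02 with the GC correction, -0.40 without PBS 2 and OVA/LPS/Vehicle 12 and 56, and -0.49 with both of the latter, and ran from -0.17 to 0.27 with 1 library left out. Jchain turned to -0.24 and Cd79a, Cd22 and Blk to 0.17, 0.11 and 0.12 without those 3 libraries, and Jchain ran from -0.19 to 0.56 with 1 left out. Ms4a1 in OVA/LPS/Vehicle against PBS turned to -0.34 without the 3 libraries and with the GC correction. The cause of these changes was not tested.

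For OVA/LPS/Vehicle against PBS, 2 of the 9 genes were called with the same FPKM total, the same median, the 2 groups alone, voom, or the GC correction without the 3 libraries, 4 with array weights and 6 without the 3 libraries. Over all genes 2904 were called with the GC correction and 1820 with it and without the 3 libraries. With 1 library left out, 1 to 2 of the 9 genes and 3064 (without PBS 3) to 6440 genes were called.

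Between the 2 exacerbated groups, limma called 0 of the 9 genes with no filter, the same median, the GC correction or voom. It also called 0 without the 3 libraries, without or with the GC correction. At an unadjusted p under 0.05 these 6 fits held 3, 3, 4, 3, 1 and 1 of the 9. Over all genes no filter held 4676 of 18272, the same median 4227 of 14004, the GC correction 2911 of 13987 and voom 4262 of 13991. With array weights 2 of the 9 were called. Over all genes 2181 were called with the same total, 698 with the same median, 5214 with array weights, 3525 with the 2 groups alone, 56 with the GC correction and 0 without the 3 libraries, with or without it (2830 and 1605 at an unadjusted p under 0.05). With 1 library left out, 0 to 1 of the 9 and 24 (without OVA/LPS/GGsTop 1) to 1052 genes were called.

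For OVA/LPS/GGsTop against PBS, 2 of the 9 were called with the same total, 5 with array weights, 3 with the GC correction, 3 with the replicate block, 8 with the block and the GC correction, 3 without the 3 libraries and 4 without them and with the GC correction. Over all genes 208 were called with no filter, 2557 with array weights, 39 with the 2 groups alone and 595 with the GC correction. The replicate block gave 95, and 361 with the GC correction. Without the 3 libraries 759 were called, and 949 with the GC correction added. With 1 library left out, 1 to 2 of the 9 and 29 (without PBS 1) to 1597 (without PBS 2) genes were called. Among the 9 genes the block without the GC correction changed the calls of Pax5 and Blk. With the correction in both fits, the block added Ms4a1, Cd79a, Cd79b, Cd22 and Blk to Pax5, Jchain and Mzb1. Fits that leave 2 libraries in a group take their spread from all groups.

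Depth limits Tnfrsf17 and Mzb1 most, with 2 to 24 and 21 to 72 fragments per library.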
